A study of Saccharomyces cerevisiae with 12 samples.

Results

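Pulsed glucose cells were set against unpulsed xylose-phase cells of the same Saccharomyces cerevisiae strain, using the 3 arrays labelled glucose pulse and the 3 arrays labelled xylose control, 6 of the 12 arrays in the series. The arrays were chosen by these labels alone, and 5489 probe sets that each named 1 gene were compared. The study grew the yeast in anaerobic batch cultures on glucose and xylose and pulsed in the furan aldehydes 5-hydroxymethylfurfural (HMF) and furfural in either consumption phase. These aldehydes form when plant biomass is pretreated, and the strain consumes glucose before xylose.

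Glucose pulse cells had received furfural at 1.2 g/L together with HMF at 3.9 g/L during glucose consumption and were sampled 1 hour later. Xylose control cells were consuming xylose after the glucose had run out and had received no pulse. Glucose control cells, also 3 arrays, were unpulsed cells in glucose consumption and give the level from which the pulsed cells started. The 3 xylose pulse arrays entered only the estimate of the spread. All groups were strain VTT C-10883, a MATalpha strain of CEN.PK background in which XYL1 and XYL2 of Scheffersomyces stipitis were integrated at ura3, native XKS1 was overexpressed and URA3 was restored. Each group came from 3 individual bioreactors of this 1 strain. The sources describe the controls both as samples taken before a pulse and as cultures without one. Carbon source, growth phase, time in culture and the pulse all differ between glucose pulse and xylose control cells, and their parts in any difference below cannot be told apart. In these bulk samples, fewer cells expressing a transcript and less of that RNA per cell cannot be told apart either.

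Yeast reduces furan aldehydes to their alcohols with NADH- or NADPH-dependent oxidoreductases. Aldehydes also damage protein and membranes, and yeast answers with chaperones, proteasomes, membrane exporters and the general stress programme of the transcription factors Msn2 and Msn4. That programme is also turned on when glucose runs out, while glucose itself represses the genes for respiration, gluconeogenesis, alternative sugars and fatty acid breakdown. A gene can therefore move the same way in a cell stressed on glucose and in an unstressed cell that has moved on to xylose, and the level in xylose cells serves here as a yardstick.

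A level is the log2 expression value of a probe set and a difference is glucose pulse minus xylose control on that scale, so 1 is a 2-fold change. A gene was called higher or lower when the limma adjusted p was under 0.01 and the difference was above 1 or below -1. Of 5489 probe sets, 1390 were called higher in glucose pulse cells (25.3%) and 1261 lower (23.0%), together 2651 (48.3%). Every count below of list members called higher or lower than in xylose control cells is to be read beside these 25.3% and 23.0%. The 3 and 3 arrays did not overlap for 4785 probe sets (87.2%), 2442 with the pulse arrays above and 2343 with them below. Another 1654 probe sets had an adjusted p under 0.01 with less than a 2-fold difference. The median difference was 0.02 and the median absolute difference 0.95. Between the controls, 3015 probe sets were called (54.9%), and between glucose pulse and glucose control 1161 (21.2%). Of these 1161, 637 were higher and 524 lower in glucose pulse cells.

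Arrays of 1 group correlated with each other at 0.994 to 0.998. Glucose pulse arrays correlated at 0.729 to 0.746 with xylose control arrays, and at 0.92 to 0.927 with glucose control arrays. The controls correlated at 0.637 to 0.651 with each other. These correlations run over probe sets of jointly normalized arrays and are descriptions. The strain's mating type showed in its transcripts, with the a-factor receptor gene STE3, used by alpha cells, at 11.29, 11.28 and 11.04 in glucose pulse cells, 8.27, 8.13 and 8.19 in xylose control cells and 12.5, 12.27 and 12.29 in glucose control cells. The receptor gene of a cells, STE2, stood at 5.65, 5.74 and 5.19 in glucose pulse cells, 5.92, 6.05 and 6.20 in xylose control cells and 5.13, 5.61 and 5.51 in glucose control cells. Dim values such as those of absent genes were not screened by detection calls, so the size of a difference that starts from a level near the bottom of the scale, about 2, is not exact.

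**Figure D1:**
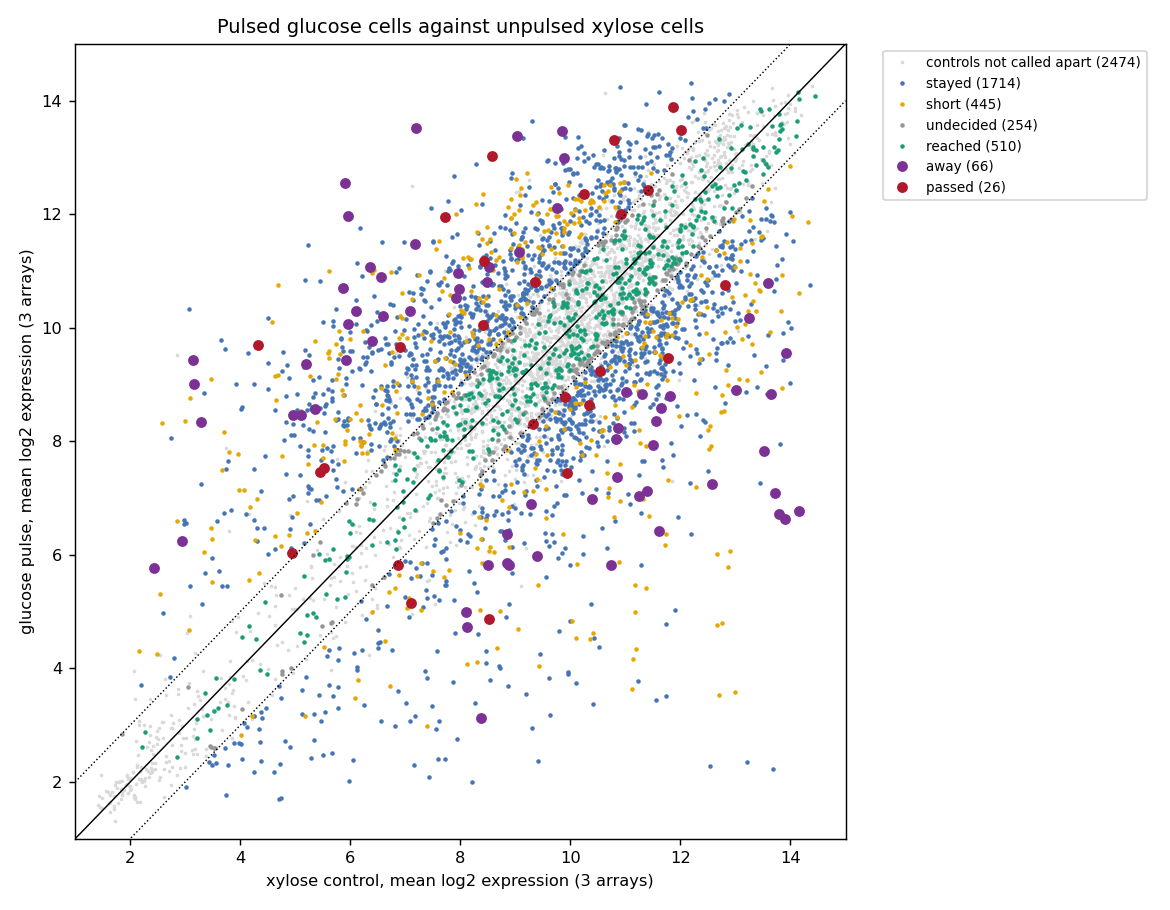
Mean log2 expression of each of 5489 probe sets in glucose pulse cells (vertical axis) and xylose control cells (horizontal axis), 3 arrays each, coloured by the position of the pulse relative to both controls. The solid line marks equal levels and the dotted lines a difference of 1 either way. The 26 probe sets that passed the xylose control lie outside the dotted lines, and the 510 that reached it lie between them.

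The 3015 probe sets that were called between the controls form a scale with the glucose control at one end and the xylose control at the other, and each pulsed level was placed on it. A gene passed when the pulse was called beyond the xylose control, and reached it when it was not called and the 95% interval of the difference lay within -1 to 1. It fell short when it was called on the glucose side of the xylose control but also called from the glucose control towards it. It stayed when it was called from the xylose control and not from the glucose control, and it moved away when it was called from the glucose control in the opposite direction. The remaining genes, not called and with an interval past 1 either way, were undecided. Staying required no interval, so a gene that stayed can still lie off the glucose control level. The 3 contrasts share arrays, so these counts are a description.

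Most of these probe sets were classed as stayed. Of 1524 probe sets higher in xylose control than glucose control cells, 16 were passed by the pulse (1%), 306 reached (20.1%), 209 fell short (13.7%), 814 stayed (53.4%), 34 moved away (2.2%) and 145 were undecided (9.5%). Of 1491 lower in xylose control cells, 10 were passed (0.7%), 204 reached (13.7%), 236 fell short (15.8%), 900 stayed (60.4%), 32 moved away (2.1%) and 109 were undecided (7.3%). Of the 306 and 204 that reached, 182 and 102 were also called from the glucose control, and the other 124 and 102 were called from neither control.

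**Figure D2:**
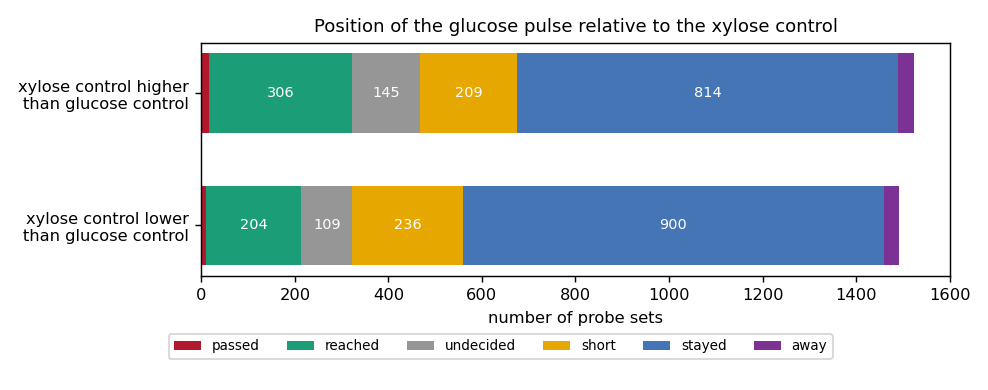
Number of probe sets in each position class (horizontal axis), for the 1524 probe sets higher and the 1491 lower in xylose control than glucose control cells. Staying, called from the xylose but not the glucose control, was the most frequent position in both bars, with 814 and 900 probe sets. Passing the xylose control was the least frequent, with 16 and 10.

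The 16 probe sets passed on the upper side named 15 genes, of which 3 are on the list of Pdr1 and Pdr3 drug resistance genes, 2 on that of chaperones, 1 on that of aldehyde reductases and 1 on that of amino acid breakdown. RSB1, a sphingoid base transporter of the plasma membrane, stood at 12.37, 12.35 and 12.37 in glucose pulse cells, 10.23, 10.19 and 10.35 in xylose control cells and 3.14, 3.01 and 2.69 in glucose control cells. Both pulsed and xylose control cells were thus far above the glucose control, and the pulsed cells higher still (difference 2.10, SE 0.10, adjusted p = 3.8e-10). LSO1, which encodes a small protein of unsettled function, stood at 9.99, 9.57 and 9.52 in glucose pulse cells, 3.99, 4.49 and 4.49 in xylose control cells and 2.55, 2.40 and 3.08 in glucose control cells (difference 5.37, SE 0.20, adjusted p = 2.2e-11). The uncharacterized YLL056C and YGR035C were higher by 4.46 and 4.22. HBN1, a putative nitroreductase, stood at 13.34, 13.32 and 13.24 in glucose pulse cells, 10.77, 10.79 and 10.81 in xylose control cells and 9.11, 9.46 and 9.23 in glucose control cells (difference 2.51, SE 0.09, adjusted p = 2.3e-11). ARO9, an aromatic aminotransferase of amino acid breakdown, was higher by 2.75 and YHR140W by 2.75. The others were CIS1, SMA1, YKL070W, BTN2, DDI1, PDR15, the chaperone gene SSA4 and the transporter gene HXT9, the last with both of its probe sets, which may also read the near-identical HXT11. Differences ran from 1.01 to 5.37. For all 16 the pulse arrays lay above the xylose control arrays, beside 87.2% not overlapping in either direction over all probe sets. Passing already required a call above the xylose control, so this adds no separate support.

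On the lower side the 10 passed genes included enzymes and carriers of purine, one-carbon and methionine metabolism. SAM3, the S-adenosylmethionine permease, stood at 4.72, 4.92 and 4.998 in glucose pulse cells, 8.51, 8.66 and 8.38 in xylose control cells and 9.94, 9.496 and 9.62 in glucose control cells (difference -3.63, SE 0.12, adjusted p = 6.9e-12). ADE17, whose enzyme completes IMP, stood at 9.32, 9.32 and 9.77 in glucose pulse cells, 11.65, 11.83 and 11.85 in xylose control cells and 13.22, 13.47 and 13.502 in glucose control cells (difference -2.31, SE 0.13, adjusted p = 1.6e-09). The pulsed cells were thus below the xylose cells, which were themselves below the glucose control. SHM2, the cytosolic serine hydroxymethyltransferase, had a difference of -2.05, ADE8 one of -1.29 and FCY2, the purine and cytosine permease, one of -1.70. MAE1, the mitochondrial malic enzyme, differed by -2.49 and the uncharacterized TDA6 by -1.95. FET4, ATO3 and RNR3 were the others, at -1.13, -1.04 and -1.01. ATO3 and RNR3 lost their calls without glucose pulse replicate 1 (-0.845 and -0.791), and RNR3 also without xylose control replicate 2 or 3 (-0.92 and -0.929).

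Export pumps and their regulators were mostly higher in pulsed cells. Of 20 measured genes on the multidrug resistance list, 14 were called higher in glucose pulse than xylose control cells and 2 lower. The median difference was 1.70, beside 25.3% called higher and a median of 0.02 over all probe sets. The list is named for the drug resistance factors Pdr1 and Pdr3, but control of each member by them was not tested. PDR5, the main drug efflux pump, stood at 13.10, 13.502 and 13.51 in glucose pulse cells, 8.69, 9.01 and 9.37 in xylose control cells and 10.04, 10.39 and 10.37 in glucose control cells (difference 4.35, SE 0.17, adjusted p = 3.3e-11). It moved away from the xylose level, which lay below the glucose control. SNQ2, another pump, stood at 13.05, 12.95 and 13.12 in glucose pulse cells, 10.51, 10.64 and 10.62 in xylose control cells and 10.80, 10.96 and 10.89 in glucose control cells (difference 2.45, SE 0.08, adjusted p = 8.7e-12), and here the controls were not called apart. FLR1, a transporter for fluconazole and other drugs, stood at 12.49, 12.34 and 12.35 in glucose pulse cells, 9.04, 8.98 and 9.01 in xylose control cells and 8.81, 8.78 and 8.69 in glucose control cells (difference 3.38, SE 0.08, adjusted p = 3.5e-13). YOR1, the oligomycin pump, was higher by 2.45, the phosphatidylinositol transfer gene PDR16 by 3.33, the acyltransferase gene ICT1 by 3.35 and the polyamine exporter gene TPO1 by 1.67.

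The regulator PDR3 stood at 9.31, 9.10 and 9.01 in glucose pulse cells, 7.01, 6.90 and 7.17 in xylose control cells and 6.92, 6.79 and 6.89 in glucose control cells (difference 2.11, SE 0.10, adjusted p = 3.3e-10). PDR1 itself lay at the threshold, with a difference of 1.01 that was 0.971 without glucose pulse replicate 3 and 0.904 without xylose control replicate 1. PDR15 was similarly close, at 1.01, which became 0.998 and 0.977 without glucose pulse replicates 1 and 3 and 0.993 without xylose control replicate 3. PDR12, the weak acid pump, was higher by 2.76. The genes called lower were the exporter genes QDR2 and AQR1, with differences of -1.40 and -1.24.

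The oxidoreductases that can act on aldehydes took every position. Of 25 measured, 9 were called higher, 5 lower and 11 were not called, with a median difference of 0.23, beside 25.3% higher and 23.0% lower over all probe sets. GRE2, a methylglyoxal reductase that acts on many aldehydes, stood at 14.01, 14.18 and 14.20 in glucose pulse cells, 10.49, 10.68 and 10.72 in xylose control cells and 11.28, 11.38 and 11.44 in glucose control cells (difference 3.501, SE 0.09, adjusted p = 1.6e-12). AAD6, of the aryl-alcohol dehydrogenase family, stood at 12.25, 12.67 and 12.60 in glucose pulse cells, 7.10, 7.09 and 7.15 in xylose control cells and 7.16, 6.83 and 6.74 in glucose control cells (difference 5.39, SE 0.12, adjusted p = 3.5e-13). For both the controls were not called apart and only the pulsed cells were high. ARI1, an NADPH-dependent aldehyde reductase, stood at 11.86, 12.01 and 12.01 in glucose pulse cells, 5.86, 5.88 and 6.12 in xylose control cells and 9.95, 10.17 and 10.10 in glucose control cells (difference 6.01, SE 0.11, adjusted p = 7e-14). Its pulsed level was above and its xylose level below the glucose control. ADH6, an NADPH-dependent alcohol dehydrogenase known to reduce HMF, stood at 12.29, 12.40 and 12.48 in glucose pulse cells, 9.74, 9.66 and 9.67 in xylose control cells and 11.998, 12.06 and 12.10 in glucose control cells (difference 2.70, SE 0.08, adjusted p = 2.4e-12), so the pulsed cells stayed near or slightly above the glucose level. The probable nitroreductase gene FRM2 was higher by 4.14.

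Some reductase genes reached the xylose level, that is, they were within 2-fold of it. OYE3, an old yellow enzyme that uses NADPH, stood at 12.73, 12.62 and 12.64 in glucose pulse cells, 12.496, 12.40 and 12.41 in xylose control cells and 6.49, 6.34 and 5.87 in glucose control cells. The difference was 0.23 with a 95% interval of -0.05 to 0.51, while both groups were more than 6 above the glucose control. GRE3, the aldose reductase, stood at 12.84, 13.06 and 13.10 in glucose pulse cells, 12.31, 12.49 and 12.43 in xylose control cells and 11.01, 11.14 and 11.05 in glucose control cells, with an interval of 0.40 to 0.79. AAD14 and AAD4 also reached, with differences of -0.57 and 0.48, where the AAD4 probe set may read close relatives of that gene.

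The 5 called lower were BDH1, ADH5, ZTA1, BDH2 and AAD10. BDH1, the butanediol dehydrogenase, stood at 9.34, 9.70 and 9.62 in glucose pulse cells, 13.83, 13.95 and 13.97 in xylose control cells and 11.29, 11.36 and 11.27 in glucose control cells (difference -4.37, SE 0.10, adjusted p = 3.1e-13), so the pulse moved it away from the xylose level. BDH2, its neighbour in sequence, stood at 9.30, 9.19 and 9.43 in glucose pulse cells, 10.88, 10.70 and 10.60 in xylose control cells and 4.18, 4.08 and 4.33 in glucose control cells (difference -1.42, SE 0.10, adjusted p = 1.4e-08) and had covered most of the distance. ADH5, an alcohol dehydrogenase, had a difference of -3.11, with the controls not called apart.

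Among 7 aldehyde dehydrogenase genes, 1 was called higher and 3 lower, beside 25.3% and 23.0% over all probe sets. ALD6, the main cytosolic acetaldehyde dehydrogenase, stood at 13.83, 13.98 and 13.998 in glucose pulse cells, 11.15, 11.58 and 11.37 in xylose control cells and 13.16, 13.10 and 13.16 in glucose control cells (difference 2.57, SE 0.11, adjusted p = 8.1e-11). It was classed as stayed, though its pulsed arrays lay above the glucose control arrays. ALD4, the mitochondrial form, reached the xylose level at 12.28, 12.26 and 12.48 in glucose pulse cells, 12.90, 12.88 and 12.84 in xylose control cells and 9.99, 10.11 and 10.08 in glucose control cells, an interval of -0.71 to -0.36. ALD3 fell short with a difference of -2.45, and ALD2 stayed, with a difference of -3.81. ZWF1, whose enzyme makes NADPH at the head of the pentose phosphate pathway, reached with a difference of -0.17.

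Of 11 genes for breakdown of aromatic and branched amino acids, which include decarboxylase genes of the fusel alcohol pathway, 5 were called higher and 1 lower, with a median of 0.30, beside 25.3% and 23.0% over all probe sets. ARO10, the phenylpyruvate decarboxylase, stood at 9.58, 9.46 and 9.54 in glucose pulse cells, 2.98, 2.77 and 2.82 in xylose control cells and 3.21, 3.76 and 3.11 in glucose control cells (difference 6.67, SE 0.19, adjusted p = 2.6e-12). PDC5, a minor pyruvate decarboxylase gene, stood at 13.55, 13.58 and 13.44 in glucose pulse cells, 7.09, 7.17 and 7.33 in xylose control cells and 9.33, 8.87 and 9.14 in glucose control cells (difference 6.33, SE 0.12, adjusted p = 1.1e-13). For each the pulsed arrays lay above both controls, and ARO10 was near the bottom of the scale in the controls. PDC1, the major form, was higher by 2.55 and was classed as stayed. The decarboxylase genes PDC6 and THI3 were not called, with differences of -0.51 and 0.30.

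Where the controls were not called apart, 2474 probe sets in all, 206 were called higher and 194 lower in pulsed than xylose control cells. Of these, 86 were also called above and 67 below the glucose control. Among the lower genes were those of the glycine cleavage complex. GCV1, its T subunit, stood at 7.33, 7.21 and 7.36 in glucose pulse cells, 11.74, 11.84 and 11.95 in xylose control cells and 11.38, 11.55 and 11.62 in glucose control cells (difference -4.54, SE 0.14, adjusted p = 3.9e-12). GCV2, the P subunit, stood at 9.31, 8.96 and 8.98 in glucose pulse cells, 11.99, 11.92 and 11.99 in xylose control cells and 12.73, 12.72 and 12.72 in glucose control cells (difference -2.88, SE 0.10, adjusted p = 1.9e-11), and GCV3, the H subunit, was lower, with a difference of -1.80. LPD1, the subunit shared with other dehydrogenase complexes, differed by -0.19 and was not called. Of the whole list of 13 one-carbon genes, 4 were called lower and 1 higher, beside 23.0% and 25.3% over all probe sets. The list's median was -0.47.

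**Figure D3:**
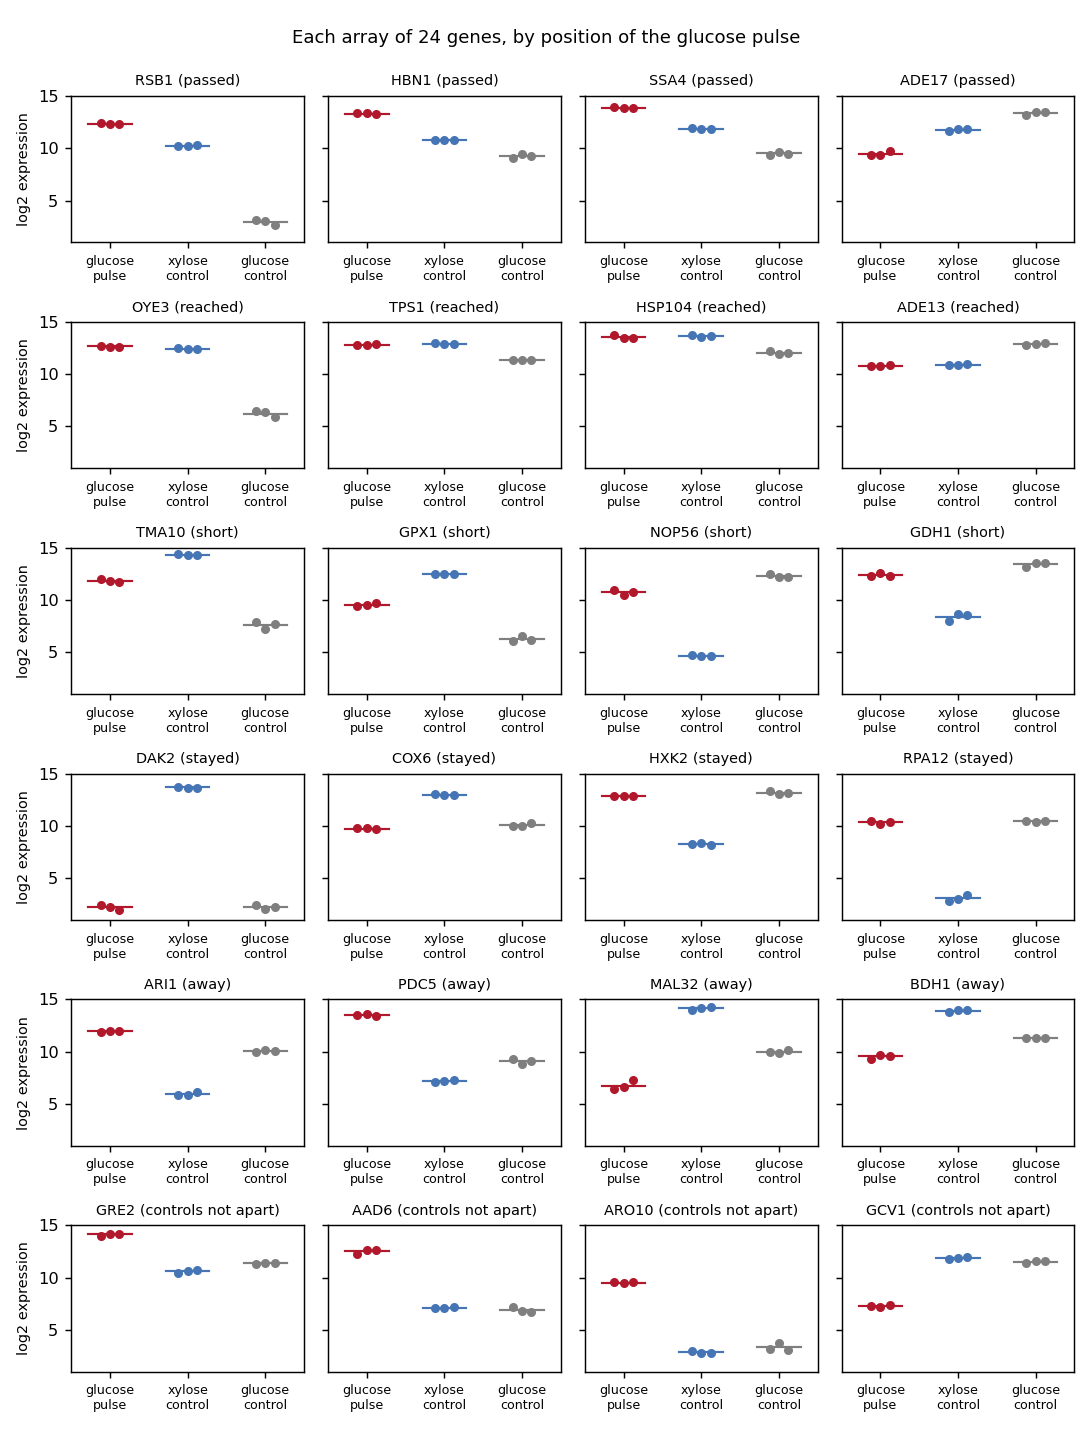
Log2 expression on each array (points) and the group mean of 3 arrays (lines) for 24 genes, with glucose pulse left, xylose control in the middle and glucose control right, and the position class in each title. RSB1 at 12.36 is above its xylose control mean of 10.26, OYE3 is within 1 of it, TMA10 is part of the way, DAK2 is at the glucose control level and ARI1 is on the far side of it.

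The general stress programme was higher in pulsed cells than in the glucose control, and most of it was under the xylose level. Of 41 measured genes that Msn2 and Msn4 commonly induce, all 41 were called higher in xylose control than glucose control cells. In glucose pulse cells, 37 were called higher than in the glucose control, beside 637 of all 5489 probe sets. Against the xylose control, 28 were called lower and 0 higher, with a median of -1.86, beside 23.0% called lower over all probe sets. As all 41 were called higher in xylose control than glucose control cells, a high count below the xylose level is partly built in. By position 24 fell short, 12 reached, 4 stayed and 1 was undecided. Among all probe sets higher in xylose control cells, 13.7% fell short, 20.1% reached, 53.4% stayed and 9.5% were undecided. TMA10, a ribosome-associated stress protein, stood at 12.01, 11.80 and 11.75 in glucose pulse cells, 14.37, 14.29 and 14.29 in xylose control cells and 7.86, 7.21 and 7.68 in glucose control cells (difference -2.46, SE 0.14, adjusted p = 2.1e-09). GPX1, a glutathione peroxidase, stood at 9.47, 9.49 and 9.67 in glucose pulse cells, 12.52, 12.52 and 12.52 in xylose control cells and 6.13, 6.51 and 6.20 in glucose control cells (difference -2.98, SE 0.10, adjusted p = 1.2e-11). GAD1, glutamate decarboxylase, had a difference of -3.01 and HSP12, a small membrane-protecting protein, one of -1.15. GRE1, a hydrophilin, stood at 4.34, 4.91 and 4.39 in glucose pulse cells, 10.13, 10.66 and 10.52 in xylose control cells and 3.72, 3.71 and 3.62 in glucose control cells (difference -5.89, SE 0.17, adjusted p = 2.6e-12). It was classed as stayed, though its pulsed arrays lay above the glucose control arrays. CTT1, the cytosolic catalase, was the undecided one, at -0.88 with an interval of -1.27 to -0.48, and was called lower without glucose pulse replicate 3 (-1.08).

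The 12 that reached included genes of trehalose synthesis and a small heat shock protein gene. YGP1, a cell wall glycoprotein of starvation, stood at 12.996, 13.74 and 13.66 in glucose pulse cells, 13.67, 13.92 and 13.87 in xylose control cells and 8.51, 9.16 and 8.497 in glucose control cells, an interval of -0.91 to 0.20. TPS1, which makes trehalose phosphate, stood at 12.81, 12.78 and 12.84 in glucose pulse cells, 12.98, 12.88 and 12.88 in xylose control cells and 11.32, 11.37 and 11.33 in glucose control cells, an interval of -0.25 to 0.05. TPS2, the phosphatase of the next step, and TSL1, a regulatory subunit, had differences of -0.43 and -0.23. Of 7 trehalose genes, 4 reached, 1 fell short and 1 stayed among the 6 called between the controls, and all 7 were above the glucose control. The 2 called lower than the xylose control were breakdown genes, the trehalases NTH2 and ATH1, at -1.92 and -1.91. Another trehalase gene, NTH1, was among the 4 that reached.

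Glycogen genes mostly lay below the xylose level. Of 14 measured, 11 were called lower in pulsed cells, 2 higher, and 0 reached, with a median of -2.44. GSY2, the main glycogen synthase, stood at 8.11, 8.502 and 8.49 in glucose pulse cells, 12.18, 12.54 and 12.51 in xylose control cells and 7.95, 8.27 and 8.12 in glucose control cells (difference -4.04, SE 0.15, adjusted p = 1.9e-11). GAC1, the phosphatase subunit that activates it, was lower, with a difference of -7.47, starting from a level near the bottom of the scale in glucose control cells, and GSY1 had one of -1.44. PGM1, the minor phosphoglucomutase, was higher by 4.28 and was classed as stayed.

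Of 28 chaperone genes, 7 were called higher and 5 lower in pulsed than xylose control cells, with a median of 0.18, close to the 25.3% and under the 23.0% called over all probe sets. Of the 16 higher in xylose control than glucose control cells, 2 were passed and 9 reached, against 1% and 20.1% over all probe sets of that direction. SSA4, a stress-inducible Hsp70, stood at 13.96, 13.87 and 13.81 in glucose pulse cells, 11.90, 11.83 and 11.86 in xylose control cells and 9.39, 9.68 and 9.47 in glucose control cells (difference 2.02, SE 0.11, adjusted p = 1.4e-09). BTN2, which gathers misfolded protein, stood at 13.59, 13.46 and 13.38 in glucose pulse cells, 12.11, 11.96 and 11.95 in xylose control cells and 10.55, 10.08 and 10.11 in glucose control cells (difference 1.47, SE 0.13, adjusted p = 1.4e-07). HSP104, the disaggregase, stood at 13.78, 13.43 and 13.48 in glucose pulse cells, 13.78, 13.59 and 13.62 in xylose control cells and 12.19, 11.93 and 12.06 in glucose control cells, with an interval of -0.39 to 0.18. HSP42 and HSP26, both small chaperones, had intervals of -0.03 to 0.53 and -0.64 to 0.39. SSA3, an Hsp70 of late growth, fell short with a difference of -2.56. The constitutive SSA2 stood at 14.35, 14.18 and 14.22 in glucose pulse cells, 10.81, 11.06 and 10.85 in xylose control cells and 14.10, 13.98 and 14.08 in glucose control cells (difference 3.35, SE 0.10, adjusted p = 4.7e-12), and stayed with the glucose control.

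Most proteasome genes were above the xylose level in pulsed cells but within 2-fold of it. Of 35 measured, 0 were called between the controls. In glucose pulse cells, 14 were called higher than in the glucose control, beside 637 of all 5489 probe sets. Against the xylose control, 3 were called higher and 1 lower. The differences were above 0 for 34 of 35, with a median of 0.58. The 95% interval lay within -1 to 1 for 28, beside 2273 of all 5489 probe sets. The pulse arrays lay wholly above the xylose control arrays for 29 genes and wholly below for 1. Over all probe sets these counts were 2442 and 2343. RPN4, the factor that turns on proteasome genes, stood at 13.29, 13.32 and 13.28 in glucose pulse cells, 12.57, 12.62 and 12.70 in xylose control cells and 11.70, 11.72 and 11.61 in glucose control cells (interval 0.51 to 0.81). PRE2, a catalytic subunit, was higher by 1.18. UMP1, an assembly factor, at 1.02, lost its call without glucose pulse replicate 1 (0.985) or xylose control replicate 3 (0.996). RPN14, an assembly chaperone, was lower, with a difference of -1.28.

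Antioxidant genes were counted in 2 lists. Of 13 peroxidase, catalase and dismutase genes, 1 was called higher and 5 lower. Pulsed cells were called above the glucose control for 8 of 13, beside 637 of all 5489 probe sets. Of 27 thioredoxin, glutaredoxin and glutathione genes, 6 were called higher, 6 lower and 15 were not called, with a median of -0.17, close to the 25.3% higher and 23.0% lower over all probe sets. GRX8, a glutaredoxin, was higher by 2.44 and GTT1, a glutathione transferase, lower, with a difference of -2.79. The oxidative stress factor YAP1 stood at 11.47, 11.36 and 11.37 in glucose pulse cells, 11.03, 10.98 and 10.97 in xylose control cells and 10.44, 10.54 and 10.49 in glucose control cells, a difference of 0.41 that was not called.

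Respiratory genes separated the groups without exception. All 36 measured genes of the respiratory chain and ATP synthase were called lower in glucose pulse than xylose control cells, with differences from -6.94 to -1.18 and a median of -2.62. Of the 35 that were called between the controls, 27 stayed, 8 fell short and 0 reached, against 53.4%, 13.7% and 20.1% over all probe sets of that direction. COX6, a cytochrome oxidase subunit, stood at 9.77, 9.78 and 9.68 in glucose pulse cells, 13.01, 12.92 and 12.96 in xylose control cells and 9.96, 10.03 and 10.25 in glucose control cells (difference -3.22, SE 0.09, adjusted p = 3.1e-12). NDE2, an external NADH dehydrogenase, stood at 4.45, 5.05 and 4.88 in glucose pulse cells, 11.66, 11.79 and 11.76 in xylose control cells and 4.76, 4.91 and 4.86 in glucose control cells (difference -6.94, SE 0.13, adjusted p = 8.2e-14). Pulsed cells were not called from the glucose control for either gene. HAP4, the activator of respiratory genes, stood at 7.61, 6.89 and 7.30 in glucose pulse cells, 13.60, 13.37 and 13.38 in xylose control cells and 6.32, 6.41 and 6.95 in glucose control cells (difference -6.18, SE 0.19, adjusted p = 5.1e-12).

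Mitochondrial ribosomal proteins followed the same pattern, with 56 of 66 called lower, 0 higher and a median of -1.5. Of 52 called between the controls, 49 stayed and 3 reached. In the tricarboxylic acid cycle, 11 of 17 were called lower and 0 higher, with a median of -1.67. CIT1, the mitochondrial citrate synthase, stood at 12.08, 11.92 and 11.95 in glucose pulse cells, 13.67, 13.65 and 13.63 in xylose control cells and 11.61, 11.57 and 11.46 in glucose control cells (difference -1.67, SE 0.07, adjusted p = 1.3e-10). ACO1, aconitase, stood at 11.64, 11.72 and 11.76 in glucose pulse cells, 13.47, 13.63 and 13.64 in xylose control cells and 13.15, 13.04 and 13.06 in glucose control cells (difference -1.87, SE 0.08, adjusted p = 7.2e-11), below both controls.

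Genes of growth on non-fermentable carbon lay far below the xylose level. Of 13 gluconeogenesis and glyoxylate cycle genes, 10 were called lower and 0 higher, with a median of -2.5. FBP1, fructose bisphosphatase, stood at 2.53, 2.497 and 2.18 in glucose pulse cells, 7.61, 7.62 and 7.96 in xylose control cells and 2.55, 2.89 and 2.74 in glucose control cells (difference -5.33, SE 0.14, adjusted p = 1.6e-12). MLS1, malate synthase, was lower, with a difference of -6.06, while ICL1, isocitrate lyase, differed by -0.72 and was not called. PCK1, which starts gluconeogenesis, had moved part of the way at 7.29, 7.14 and 7.34 in glucose pulse cells, 8.23, 8.56 and 8.28 in xylose control cells and 5.74, 6.02 and 5.81 in glucose control cells (difference -1.10, SE 0.12, adjusted p = 1.6e-06), and lost its call without xylose control replicate 2 (-0.994).

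Acetate use genes and their regulators had a median of -3.94, with 14 of 17 called lower. CAT8, the activator of gluconeogenic genes, stood at 4.62, 4.46 and 4.82 in glucose pulse cells, 10.44, 10.39 and 10.42 in xylose control cells and 3.33, 2.99 and 3.19 in glucose control cells (difference -5.79, SE 0.12, adjusted p = 1.6e-13). ATO2, a putative ammonium exporter, stood at 7.17, 7.22 and 7.22 in glucose pulse cells, 12.14, 12.42 and 12.29 in xylose control cells and 3.41, 3.48 and 3.31 in glucose control cells (difference -5.08, SE 0.09, adjusted p = 4.4e-14). Both were above the glucose control and still many-fold below the xylose control. Of 29 peroxisomal and beta-oxidation genes, 22 were called lower and 1 higher, with a median of -1.51. POT1, the thiolase, differed by -7.03. FAA1, an acyl-CoA synthetase that is not on that list, reached the xylose level at 12.33, 12.21 and 12.18 in glucose pulse cells, 12.36, 12.38 and 12.39 in xylose control cells and 8.28, 8.86 and 9.12 in glucose control cells, an interval of -0.47 to 0.20.

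DAK2, a dihydroxyacetone kinase, stood at 2.44, 2.25 and 1.98 in glucose pulse cells, 13.74, 13.67 and 13.64 in xylose control cells and 2.41, 2.08 and 2.23 in glucose control cells (difference -11.46, SE 0.11, adjusted p = 3.8e-16). Its pulsed and glucose control levels were near the bottom of the scale, so the size of this difference is not exact. Among hexose transporter genes, 4 of 15 were called higher in pulsed cells and 7 lower, beside 25.3% and 23.0% over all probe sets, and 0 reached. HXT1, the low-affinity transporter made at high glucose, stood at 11.38, 11.88 and 11.14 in glucose pulse cells, 5.23, 5.49 and 4.99 in xylose control cells and 11.97, 12.53 and 12.11 in glucose control cells (difference 6.23, SE 0.20, adjusted p = 7.1e-12). HXT3, of similar use, was higher by 3.45. HXT7, a high-affinity transporter whose probe set may also read its near-copy HXT6, stood at 9.47, 9.81 and 10.43 in glucose pulse cells, 13.75, 13.94 and 13.93 in xylose control cells and 9.23, 8.75 and 8.75 in glucose control cells (difference -3.97, SE 0.21, adjusted p = 9.2e-10). HXT15 was lower, with a difference of -10.86, through a probe set that may read near-identical transporters and whose pulsed level was also near the bottom of the scale. HXT4 had moved most of the way down to the xylose level, at 8.75, 8.502 and 9.05 in glucose pulse cells, 6.89, 7.95 and 7.40 in xylose control cells and 12.39, 12.17 and 12.25 in glucose control cells (difference 1.35, SE 0.21, adjusted p = 4.8e-05).

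Of the genes that moved away, 3 belong to maltose use. MAL32, maltase, whose probe set may also read MAL12, stood at 6.45, 6.59 and 7.27 in glucose pulse cells, 13.98, 14.22 and 14.23 in xylose control cells and 9.98, 9.89 and 10.13 in glucose control cells (difference -7.38, SE 0.18, adjusted p = 8.3e-13). MAL31 and MAL11, the maltose permeases, had differences of -6.62 and -7.07. In each the pulsed arrays lay below the glucose control arrays. The maltose regulator genes MAL13 and MAL33 stayed with the glucose control. Across all 34 genes that moved away on this side, differences ran from -7.38 to -2.13 with a median of -3.41. They included the cell wall gene PIR3 at -7.26, the sulfite pump gene SSU1 at -5.70, the sterol regulator gene ECM22 at -3.55 and the phosphate regulator gene PHO4 at -2.13.

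On the other side 32 genes moved away upwards, with differences of 2.27 to 6.66 and a median of 3.56. Besides PDC5, ARI1 and PDR5 they included HRP1, an mRNA 3' end factor, at 12.65, 12.54 and 12.47 in glucose pulse cells, 5.35, 6.44 and 5.89 in xylose control cells and 11.16, 11.13 and 11.20 in glucose control cells (difference 6.66, SE 0.20, adjusted p = 4.3e-12). PCL1, a G1 cyclin of the kinase Pho85, stood at 9.37, 9.44 and 9.47 in glucose pulse cells, 3.10, 3.16 and 3.16 in xylose control cells and 8.30, 8.32 and 8.29 in glucose control cells (difference 6.29, SE 0.12, adjusted p = 1.1e-13). ARO7, chorismate mutase, was higher by 4.71 and MPD2, a protein disulfide isomerase of the ER, by 4.30. By the definition of this class the xylose level is the lowest of the 3 groups.

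Glycolysis was mostly higher in pulsed cells. Of 20 genes, 11 were called higher and 2 lower, with a median of 1.21, and 10 of the 12 genes that were lower in xylose control than glucose control cells stayed. HXK2, the hexokinase of glucose-grown cells, stood at 12.90, 12.88 and 12.85 in glucose pulse cells, 8.26, 8.37 and 8.21 in xylose control cells and 13.36, 13.09 and 13.10 in glucose control cells (difference 4.60, SE 0.09, adjusted p = 1.1e-13). GLK1, glucokinase, reached the xylose level at 13.14, 13.21 and 13.23 in glucose pulse cells, 13.59, 13.74 and 13.77 in xylose control cells and 11.66, 11.83 and 11.49 in glucose control cells, and HXK1 fell short of it with a difference of -1.16. The 2 called lower were HXK1 and PYK2, a pyruvate kinase of low flux, at -2.66.

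In the pentose phosphate pathway, 6 of 12 were called higher and 4 lower, beside 25.3% and 23.0% over all probe sets. XKS1, the overexpressed xylulokinase, stood at 13.36, 13.40 and 13.43 in glucose pulse cells, 11.57, 11.54 and 11.43 in xylose control cells and 13.88, 13.72 and 13.74 in glucose control cells (difference 1.89, SE 0.10, adjusted p = 1.2e-09). TKL1, transketolase, was higher by 2.147 and TAL1, transaldolase, by 1.33, and RKI1, ribose phosphate isomerase, by 3.88. TKL2, the minor transketolase, fell short at 5.52, 5.85 and 6.11 in glucose pulse cells, 10.61, 10.92 and 10.81 in xylose control cells and 3.33, 3.40 and 3.27 in glucose control cells (difference -4.96, SE 0.15, adjusted p = 4.4e-12). Among 11 glycerol genes, 4 were called higher and 3 lower, beside the same 25.3% and 23.0%. GPP1, glycerol phosphatase, was higher by 3.51, and GPD1, the dehydrogenase before it, stood at the threshold with 1.01, or 0.962 without xylose control replicate 1.

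Most of the stationary-phase genes listed lay below the xylose level in pulsed cells. Of 22 such genes, 18 were called lower and 0 higher than in the xylose control, with a median of -2.66. By position 11 fell short, 6 stayed, 2 reached, 1 moved away and 1 was undecided. Among all probe sets higher in xylose control cells, these shares were 13.7%, 53.4%, 20.1%, 2.2% and 9.5%. The list was chosen with earlier results of these data known. As 21 of its genes were called higher in xylose control than glucose control cells, a low count of genes above the xylose level is partly built in. SPG4 stood at 3.63, 3.44 and 3.67 in glucose pulse cells, 13.15, 12.95 and 12.86 in xylose control cells and 2.58, 2.52 and 2.45 in glucose control cells (difference -9.41, SE 0.11, adjusted p = 2.5e-15). SIP18, a hydrophilin, stood at 6.68, 6.67 and 7.03 in glucose pulse cells, 14.15, 14.09 and 14.09 in xylose control cells and 4.17, 4.11 and 4.39 in glucose control cells (difference -7.32, SE 0.11, adjusted p = 1.5e-14). Both were called above the glucose control, by an amount small beside the distance to the xylose level. Of 33 autophagy genes, 18 were called lower and 2 higher, and of 55 meiosis and spore genes 23 lower and 4 higher. Their medians were -1.26 and -0.85, and the shares over all probe sets were 23.0% lower and 25.3% higher. MSN4 stood at 8.32, 8.36 and 8.28 in glucose pulse cells, 11.17, 11.11 and 11.20 in xylose control cells and 8.55, 8.44 and 8.35 in glucose control cells (difference -2.84, SE 0.08, adjusted p = 1.7e-12), while its partner MSN2 differed by -0.29 and was not called.

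**Figure D4:**
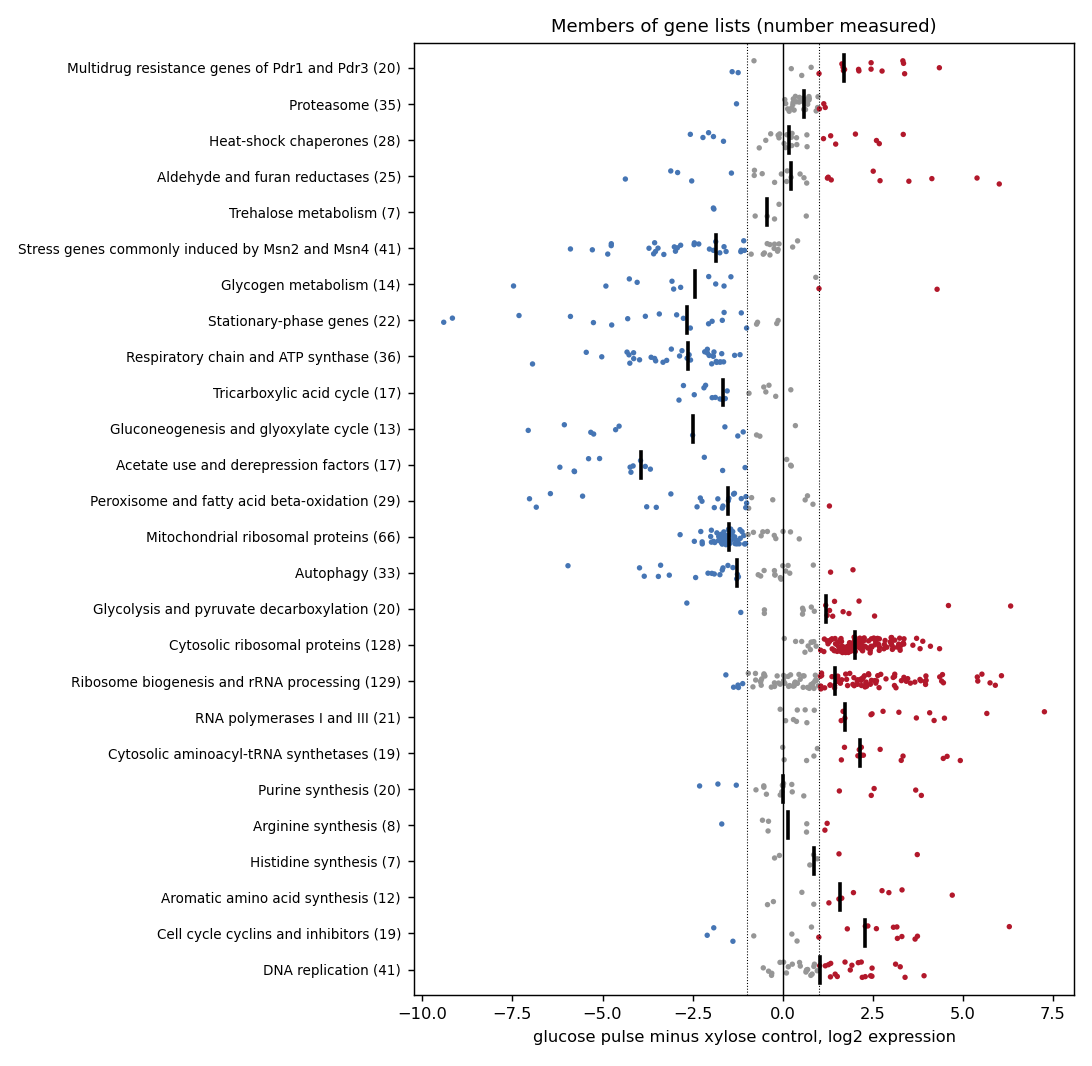
Glucose pulse minus xylose control in log2 expression (horizontal axis) for the members of 26 gene lists, with 1 point for each gene, red where called higher, blue where called lower and grey where not called, and a black bar at each list's median. Respiratory genes lie wholly below 0 with a median of -2.62, cytosolic ribosomal protein genes lie above it with a median of 2.01, purine genes lie on both sides with a median of 0.00, and 6 of 7 trehalose genes lie below 0 with a median of -0.43.

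Genes of the translation machinery lay above the xylose level in pulsed cells. Of 128 cytosolic ribosomal protein genes, 118 were called higher in glucose pulse than xylose control cells and 0 lower, with a median of 2.01. Of the 124 that were lower in xylose control than glucose control cells, 63 fell short, 55 stayed, 2 reached and 4 were undecided, against 15.8%, 60.4% and 13.7% for the first 3 over all probe sets of that direction. Against the glucose control, 67 of 128 were called lower and 0 higher, beside 524 and 637 of all 5489 probe sets. RPL13A stood at 10.96, 10.80 and 11.01 in glucose pulse cells, 6.66, 6.596 and 6.46 in xylose control cells and 12.95, 13.04 and 13.12 in glucose control cells (difference 4.35, SE 0.09, adjusted p = 1.9e-13). The 2 that reached were RPL31B, at 10.62, 10.27 and 10.48 in glucose pulse cells, 9.77, 9.62 and 9.67 in xylose control cells and 13.27, 13.14 and 13.25 in glucose control cells, and RPS14B, with intervals of 0.55 to 0.99 and 0.45 to 0.96. Many of these genes exist as near-identical pairs that a probe set may not separate.

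Ribosome biogenesis gave 76 of 129 called higher and 5 lower, with a median of 1.44, and RNA polymerases I and III 13 of 21 higher and 0 lower. NOP56, a nucleolar rRNA methylation protein, stood at 10.96, 10.51 and 10.78 in glucose pulse cells, 4.72, 4.68 and 4.65 in xylose control cells and 12.51, 12.19 and 12.22 in glucose control cells (difference 6.07, SE 0.15, adjusted p = 9.9e-13). RPA12, an RNA polymerase I subunit, stood at 10.43, 10.17 and 10.38 in glucose pulse cells, 2.80, 3.05 and 3.35 in xylose control cells and 10.49, 10.37 and 10.49 in glucose control cells (difference 7.26, SE 0.12, adjusted p = 3.2e-14). NOP56 had thus moved a little towards the xylose level and RPA12 had stayed. Of 19 cytosolic tRNA synthetase genes, 14 were called higher and 0 lower, with a median of 2.15. FRS1, a phenylalanyl-tRNA synthetase subunit, was higher by 4.93, and SES1, the seryl enzyme, by 4.56.

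Purine synthesis genes were called in both directions. Of 20 genes, 5 were called higher, 3 lower and 12 were not called, with a median of 0.00. Of the 15 lower in xylose control than glucose control cells, 8 reached, 2 were passed, 4 fell short and 1 stayed, against 13.7% reached and 0.7% passed over all probe sets of that direction. ADE13, adenylosuccinate lyase, stood at 10.80, 10.80 and 10.84 in glucose pulse cells, 10.85, 10.87 and 10.93 in xylose control cells and 12.74, 12.87 and 12.96 in glucose control cells, an interval of -0.23 to 0.09. ADE1 had a difference of -0.74. The genes called higher included IMD4, IMP dehydrogenase of the guanine branch, at 9.37, 9.43 and 9.58 in glucose pulse cells, 5.73, 5.62 and 5.49 in xylose control cells and 11.40, 11.58 and 11.70 in glucose control cells (difference 3.85, SE 0.11, adjusted p = 2.7e-12).

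Amino acid pathways were uneven. Of 8 arginine genes, 2 were called higher and 1 lower, with a median of 0.13, and 3 reached. These counts were not above the 25.3% higher and 23.0% lower over all probe sets. Of 7 histidine genes, 2 were called higher and 0 lower, and 3 reached. Of 12 aromatic synthesis genes, 8 were called higher and 0 lower, with a median of 1.6, and of 11 branched-chain genes 6 and 1. All 7 histidine genes and all 8 of the arginine and of the lysine genes were below the glucose control in pulsed cells. LYS9, saccharopine dehydrogenase, stood at 11.70, 11.497 and 11.40 in glucose pulse cells, 7.59, 7.83 and 7.44 in xylose control cells and 13.14, 13.10 and 13.11 in glucose control cells (difference 3.92, SE 0.16, adjusted p = 5.6e-11).

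In the sulfur branch, 13 of 31 were called higher and 5 lower, beside 25.3% and 23.0% over all probe sets. CYS3, cystathionine gamma-lyase, stood at 13.54, 13.69 and 13.69 in glucose pulse cells, 8.95, 9.66 and 9.27 in xylose control cells and 12.78, 12.75 and 12.75 in glucose control cells (difference 4.34, SE 0.15, adjusted p = 1.1e-11). GDH1, the anabolic glutamate dehydrogenase, stood at 12.30, 12.54 and 12.25 in glucose pulse cells, 8.01, 8.62 and 8.61 in xylose control cells and 13.18, 13.54 and 13.49 in glucose control cells (difference 3.95, SE 0.17, adjusted p = 9.8e-11). MEP2, the high-affinity ammonium permease, reached at 6.75, 7.28 and 6.98 in glucose pulse cells, 7.36, 7.39 and 7.49 in xylose control cells and 9.93, 10.41 and 9.80 in glucose control cells, an interval of -0.90 to 0.08.

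Division genes mostly lay above the xylose level in pulsed cells. Of 19 cyclin and cell cycle inhibitor genes, 12 were called higher and 3 lower, with a median of 2.29, and 0 reached. CLN2, a G1 cyclin, stood at 9.43, 9.42 and 9.5 in glucose pulse cells, 5.48, 5.84 and 6.01 in xylose control cells and 10.35, 10.28 and 10.32 in glucose control cells (difference 3.67, SE 0.16, adjusted p = 9.7e-11). CLN1 and CLB2 moved part of the way down, with differences of 3.17 and 3.07. SIC1, an inhibitor of S-phase kinase, was lower, with a difference of -1.91. Of 41 DNA replication genes, 21 were called higher and 0 lower, and 20 of the 24 that differed between the controls stayed. CDC45, which opens origins, was higher by 3.92. RNR1, the large ribonucleotide reductase subunit, was higher by 3.68, whereas its damage-inducible counterpart RNR3 stood at 7.87, 8.48 and 8.58 in glucose pulse cells, 8.97, 9.504 and 9.49 in xylose control cells and 11.96, 12.55 and 12.19 in glucose control cells (difference -1.01, SE 0.22, adjusted p = 0.00077).

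For the other lists the counts are read beside 25.3% called higher and 23.0% lower over all probe sets. Of 27 ergosterol genes, 4 were called higher and 4 lower, with a median of -0.12. The biotin list had 0 of 7 called in either direction with limma, with differences from -0.94 to 0.98. The arrays did not overlap for all 7, beside 87.2% over all probe sets. The unadjusted limma p was under 0.05 for 4 with the pulse above and 2 with it below. Histones had 1 of 9 called higher and 0 lower. Of 25 iron uptake genes, 5 were called higher and 10 lower, and of 28 nitrogen-repressed genes 4 and 11. Of 21 genes for folding in the endoplasmic reticulum, 7 were called higher and 0 lower, with a median of 0.81.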

How the data were processed

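RNA was measured on Affymetrix Yeast Genome 2.0 arrays, 12 arrays in 4 groups of 3 biological replicates. The values are log2 expression, deposited by the authors after RMA background correction, quantile normalization and median polish summary in R. This normalization brings the arrays close to 1 distribution, with array medians of 9.683 to 9.741 and lower quartiles of 8.097 to 8.335. Levels are therefore relative to the other genes and a change in total RNA is not seen. The build behind the probe sets and detection calls are not given in the sources used here, and arrays, unlike reads, carry no depth: the 3 arrays a group limit the precision. The table held 5705 probe sets, of which 5489 named 1 gene in the platform annotation, 0 several and 216 none. They named 5444 genes, 12 symbols were updated through RefSeq, and a gene with several probe sets (43 genes) was represented in lists by that of the highest mean.

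A mean for each of the 4 groups was fitted with limma 3.58.1 (lmFit and eBayes, R 4.3.3, 8 residual and 4.53 prior degrees of freedom) and p-values were adjusted by Benjamini-Hochberg over all 5489 probe sets. Calls needed an adjusted p under 0.01 and a difference past 1, the thresholds of the study's methods. On simulated data for this comparison with 5489 probe sets, 90% of changes of 1.2 and 100% of those of 1.5, 2 and 3 were recovered. Of unchanged probe sets, 0% were called. The simulation changed 50 probe sets at each size, left 5289 unchanged and drew noise independently for each array. It does not give the error rate of the real calls, where 48.3% of probe sets were called. Figures were drawn with Python 3.11.15 and matplotlib 3.10.9.

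The text names the 10 largest differences in each direction, the 5 leading genes of each position class and of the genes not called between the controls, up to 4 genes a list with the smallest adjusted p, and genes of the study's text, 308 genes in all of which some are left out. Another 54 genes were added after their values were seen. Members and lists were chosen with earlier results of these data known. Replicate numbers were checked as pairs: deviations of glucose pulse and xylose control arrays of the same number correlated at 0.478, 0.188 and 0.154, and unlike numbers at up to 0.307, so a fit with the number as a block was run beside the unpaired one. Other alternatives were another normalization, centring, probe set filter, variance prior, p threshold, gene summary, set of arrays and leaving out each array. Promoter sequences were not used here.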

Additional observations from a re-analysis of the deposited data

Results flagged for a closer look

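Probe sets that name no gene in the annotation entered no comparison above. In a fit over all probe sets of the table, 41 of the 216 without a named gene were called higher in glucose pulse than xylose control cells and 72 lower. They are noted because they carry a signal outside the genes reported on, and they were not followed further. With 3 arrays a group, single arrays were not tested for standing apart.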

How the results depend on the processing

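Counts of calls varied little with the processing. In a fit with the replicate block, 1390 probe sets were called higher and 1262 lower, against 1390 and 1261 without it, and no other count moved by more than 1.5 times. Leaving out the dimmest 25% of probe sets, which left 4116, gave 10 passed by the pulse and 131 short among probe sets higher in the xylose control, and 19 moved away among those lower in it, against 16, 209 and 32, with fewer probe sets tested. Without single arrays, 1374 to 1400 were called higher and 1247 to 1271 lower. The genes passed numbered 15 to 16 on the upper side and 8 to 12 on the lower side, and the genes that reached 280 to 323 and 183 to 208. Of the alternative values of named genes, 7455 stayed called or stayed uncalled, 29 lost a call and 20 gained one. Where either value was called, 0 reversed in sign, and sign changes between uncalled values were not counted. Some alternatives, such as the variance prior, the p threshold and leaving out a glucose control array, do not change the difference itself. Changed calls included BIO2 and BIO3, not called and then called at 1.04 and -1.19 after a second quantile normalization, as was ICL1 at -1.03, and RNR3, -0.99 with centred arrays. The median over all probe sets stayed between 0.012 and 0.044. Differences between low levels are limited by the signal above background, which the deposited values do not give.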

Other observations

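Lists not described above are given by their counts, beside 25.3% called higher and 23.0% lower over all probe sets. Of 17 daughter cell separation genes, 5 were called higher in glucose pulse than xylose control cells and 2 lower, with a median difference of 0.38. MOB2, an activator of the kinase Cbk1 in that programme, stood at 10.22, 10.11 and 10.17 in glucose pulse cells, 4.55, 4.48 and 4.52 in xylose control cells and 10.18, 9.98 and 10.13 in glucose control cells (difference 5.66, SE 0.09, adjusted p = 1.3e-14). Of 30 cell wall genes, 8 were called higher and 8 lower, and MKC7, a cell-surface aspartyl protease, stood at 8.21, 8.404 and 8.49 in glucose pulse cells, 2.95, 3.36 and 2.69 in xylose control cells and 10.01, 9.97 and 9.94 in glucose control cells (difference 5.37, SE 0.15, adjusted p = 2.1e-12). Of 13 fatty acid synthesis genes, 3 were called higher and 1 lower. ELO2, an elongase of long fatty acids, stood at 10.64, 10.82 and 10.998 in glucose pulse cells, 5.60, 5.13 and 5.59 in xylose control cells and 11.16, 11.64 and 11.57 in glucose control cells (difference 5.38, SE 0.16, adjusted p = 4e-12). For each of these 3 genes the xylose control arrays were the lowest of the 3 groups.

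Of 18 phosphate genes, 3 were called higher and 5 lower, of 16 thiamine genes 3 and 6, and of 18 inositol and phospholipid genes 4 and 1. THI80, thiamine pyrophosphokinase, stood at 8.68, 8.47 and 8.57 in glucose pulse cells, 3.88, 3.75 and 4.40 in xylose control cells and 8.80, 8.92 and 8.81 in glucose control cells (difference 4.56, SE 0.17, adjusted p = 2.3e-11). Of 10 vacuolar protease and inhibitor genes, 0 were called higher and 3 lower, and all 10 were above the glucose control in pulsed cells. PAI3, an inhibitor of proteinase A, stood at 9.24, 8.67 and 8.65 in glucose pulse cells, 12.39, 12.15 and 12.29 in xylose control cells and 6.998, 6.70 and 6.66 in glucose control cells (difference -3.42, SE 0.23, adjusted p = 1e-08) and fell short of the xylose level.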
